A study of Mus musculus with 12 samples.

Results

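A group of 10 genes of the contractile apparatus of fast skeletal muscle was followed across 12 RNA-seq libraries of mouse gingiva, as a measure of the muscle tissue that each dissection held. They are Acta1, Ckm, Myh1, Myh2, Myh4, Mylpf, Tnnt3, Tnni2, Tnnc2 and Actn3. They were chosen by symbol from the 21965 genes of the count table, all 10 were found, and all 10 were among the 15046 genes that passed the filter on low counts. The mice were C57BL/6 wild type (WT) or Cybb-/- animals under 12 weeks of age, and Cybb encodes the catalytic subunit of Nox2, the NADPH oxidase of phagocytes. In the ligated groups a silk thread was tied around a maxillary molar, which lets inflammation develop in the gingiva around it, and the tissue was taken 8 days later. Naive mice received no ligature. Each of the 4 groups, WT ligated, Cybb-/- ligated, WT naive and Cybb-/- naive, had 3 libraries from mice matched for age and sex. The sources do not name a cell type to which the Cybb disruption was limited, and they differ on the side of the ligature.

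Cybb itself was checked first and went against its label. It had 8.41, 15.2 and 12.8 CPM, counts scaled to library size, in the 3 WT ligated libraries and 56.1, 51.1 and 63.7 CPM in the 3 ligated libraries labelled Cybb-/-. In naive tissue it had 5.60, 5.38 and 4.19 CPM in WT and 41.6, 56.3 and 45.9 CPM in those labelled Cybb-/-. Every library labelled Cybb-/- was above every WT library, and since counts cover the gene end to end, they cannot tell whether the disrupted stretch was transcribed. CPM used edgeR's TMM factors. The totals ran from 27958819 to 42613423 counts, and replicates of a group differed by 37.6 to 228 times the sampling noise (chi-square per degree of freedom over genes). As a check of the tissue label, Krt13, a keratin of the oral lining, was at 20750.3 to 43913 CPM. WT naive replicate 3 stood apart with 28942 CPM of the gland mucin Muc5b, against 55.6 CPM in WT naive replicate 1.

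Skeletal muscle fibres contract when thick filaments of myosin pull on thin filaments of actin inside the sarcomere, the repeating unit between adjacent Z-discs. Fast and slow fibres use different myosin heavy chains, and the adult fast chains IIa, IIx and IIb are encoded by Myh2, Myh1 and Myh4, in the order of increasing speed. Embryonic and perinatal chains, from Myh3 and Myh8, are made in developing muscle and again when fibres regenerate. Gingiva is a lining of keratinised epithelium and fibrous connective tissue with no sarcomeric muscle of its own, while muscles of the cheek, lip and palate lie close by.

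Reads of muscle were present in all 12 libraries, in amounts that varied several-fold within groups. The 10 genes together held 0.247%, 0.0637% and 0.298% of all counts in the WT ligated libraries and 0.113%, 0.300% and 0.0974% in the ligated libraries labelled Cybb-/-. In naive tissue they held 0.108%, 0.208% and 0.0780% in WT and 0.0849%, 0.191% and 0.330% in the libraries labelled Cybb-/-. The highest share was 5.17 times the lowest, and the ranges of the 4 groups overlapped. The group means ± SD (n = 3) were 0.203% ± 0.123 and 0.170% ± 0.113 in ligated WT and Cybb-/- tissue. They were 0.131% ± 0.0680 and 0.202% ± 0.123 in naive WT and Cybb-/- tissue. The largest difference between these means was smaller than the SD of 3 of the 4 groups, and as a sum over chosen genes it was given no test. The shares rest on 21801 to 113678 counts, so that the 95% Wilson interval of the lowest, 0.0629% to 0.0645%, is narrow beside the differences between libraries and covers counting error only. Taking 118 genes, the 10 members and 7 of the muscle lists described here (all but the myogenic, junction and slow fibre lists), 0.237% to 0.939% of counts came from muscle genes. In tissue RNA of this kind, fewer muscle fibres and less RNA per fibre cannot be told apart.

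**Figure D1:**
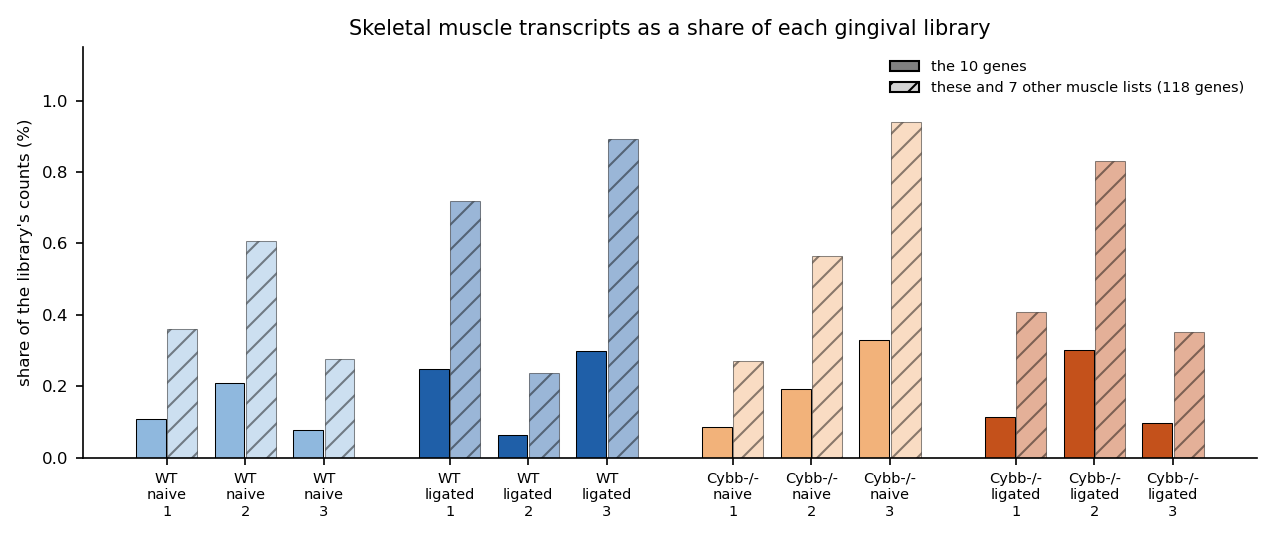
Percent of each library's counts (y axis) on the 10 sarcomere genes and on 118 muscle genes that include them and 7 other lists, as bars for the 12 libraries (x axis) in their 4 groups. The 10 genes range from 0.0637% in WT ligated replicate 2 to 0.330% in Cybb-/- naive replicate 3, and the ranges of the 4 groups overlap.

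Of the 10 genes, 8 varied together from library to library and 2 did not. The 8 were Acta1, skeletal alpha actin of the thin filament, Ckm, the muscle creatine kinase that buffers ATP, the IIx and IIb myosin genes Myh1 and Myh4, and Mylpf, the fast regulatory light chain. The others among them, Tnnt3, Tnni2 and Tnnc2, encode the fast troponins T, I and C, which pass the calcium signal to the thin filament. Pairwise Pearson correlations of log2(CPM + 0.5) over the 12 libraries ran from 0.638 to 0.990 among these 8, with a median of 0.903. Taken as deviations from group means they ran from 0.835 to 0.991. Myh2, the IIa chain of oxidative fast fibres, had correlations with the 8 from -0.604 to 0.00870, and Actn3, the alpha-actinin of fast-fibre Z-discs, from -0.559 to 0.00374. The division into 8 and 2 was made after these values were seen, and the libraries share their scaling, so the correlations are given as a description.

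Myh1, at 159 to 869.8 CPM, had the most counts of the 10 in median over libraries, and the IIx gene was the leading myosin in every library. The span from the lowest to the highest library was 5.12-fold for Mylpf, 5.47-fold for Myh1, 5.68-fold for Acta1, 6.65-fold for Tnnt3, 6.74-fold for Tnnc2 and 7.83-fold for Tnni2. It was 13.5-fold for Ckm, 19.3-fold for Myh2, 33.0-fold for Actn3 and 37.2-fold for Myh4. The genes that a ligature comparison turns on, Myh2, Actn3, Myh4 and Ckm, thus had the widest spans.

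On GRCm38 the members lie on 5 chromosomes, and counts cover all exons of each gene. The myosin genes Myh2 (ENSMUSG00000033196), Myh1 (ENSMUSG00000056328) and Myh4 (ENSMUSG00000057003) are on chromosome 11. Chromosome 7 holds Ckm (ENSMUSG00000030399) at 19404776 to 19422841, Mylpf (ENSMUSG00000030672) at 127208890 to 127214298, Tnni2 (ENSMUSG00000031097) at 142441808 to 142444410 and Tnnt3 (ENSMUSG00000061723) at 142498836 to 142516009, all on the plus strand. Acta1 (ENSMUSG00000031972) is on the minus strand of chromosome 8 at 123891769 to 123894751, Tnnc2 (ENSMUSG00000017300) on that of chromosome 2 at 164777161 to 164779967, and Actn3 (ENSMUSG00000006457) on that of chromosome 19 at 4861216 to 4877909.

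Per exon length, as TPM (the length-scaled share of transcripts) computed over the count table, the small proteins of the thin filament and the light chain led. The medians over 12 libraries were 586 TPM for Tnnt3, 461 for Tnnc2, 456 for Mylpf, 390.0 for Acta1 and 213 for Tnni2. Myh1 had a median of 188, Ckm 95.9, Myh4 65.7, Myh2 9.40 and Actn3 6.57 TPM. Tnnt3 was above Tnnc2, Acta1 above Tnni2 and Myh1 above Ckm in 12 of 12 libraries. The order of Tnnc2 and Mylpf held in 7 libraries, and that of Mylpf and Acta1 and of Tnni2 and Myh1 in 6, so these neighbours did not differ beyond their spread. Ckm was above Myh4 in 10, Myh4 above Myh2 in 9 and Myh2 above Actn3 in 10 of 12 libraries. The lengths join all annotated exons of a gene, and the order could differ with the lengths of single transcripts.

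**Figure D2:**
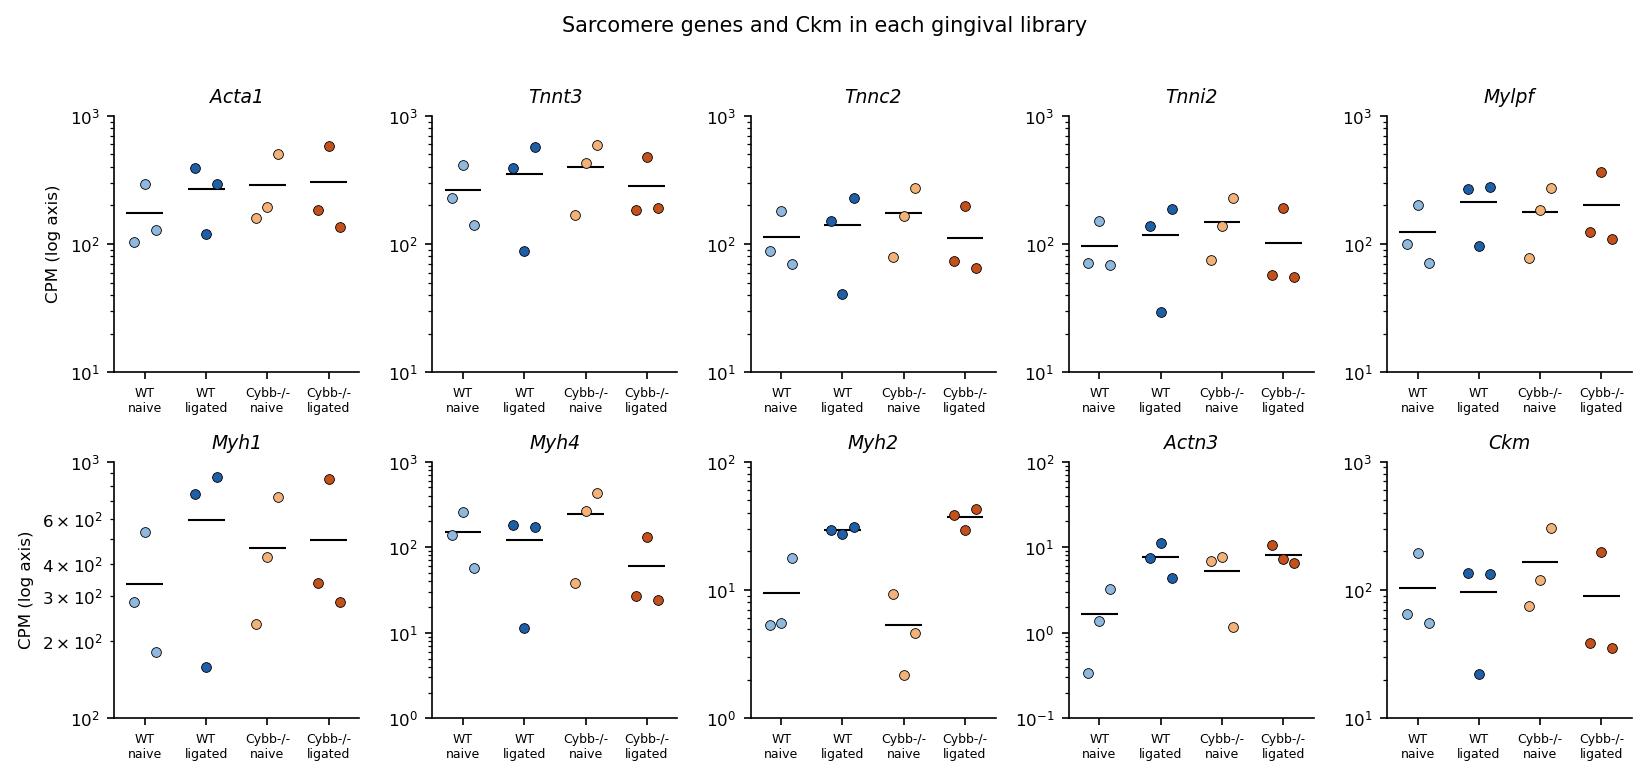
CPM of each of the 10 genes (y axis, log scale) in the 4 groups (x axis), 1 panel per gene, with a point per library and a line at the group mean. For Myh2 the 6 ligated libraries, 27.3 to 42.4 CPM, lie above the 6 naive ones, 2.19 to 17.8 CPM.

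Ligated and naive tissue were compared to ask whether the muscle genes differed with inflammation at the molar. Myh2 was the member that did. In ligated tissue Myh2 had 29.5, 27.3 and 30.7 CPM in the 3 WT libraries and 38.6, 29.3 and 42.4 CPM in the 3 libraries labelled Cybb-/-. Among naive libraries, Myh2 had 5.33, 5.57 and 17.8 CPM in WT and 9.24, 2.19 and 4.64 CPM in those labelled Cybb-/-. All 6 ligated libraries were above all 6 naive ones. Taken over both genotypes, a comparison added after the data had been seen, Myh2 was 4.59-fold higher in ligated tissue (log2 fold change 2.20 ± 0.36 SE, adjusted p = 0.00158, edgeR's quasi-likelihood test). Myh2 rose 6.87-fold with ligature in the libraries labelled Cybb-/- (log2 2.78 ± 0.53 SE, adjusted p = 0.00641, edgeR). With single libraries left out this log2 fold change ran from 2.40 to 3.43. In WT the difference was 3.06-fold (log2 1.62 ± 0.50 SE) and missed the threshold in edgeR, with an adjusted p of 0.1004, while DESeq2 called it, with an adjusted p of 0.0166. WT naive replicate 3, at 17.8 CPM the highest naive library, decided the edgeR call, since without it the WT difference was 2.42 on the log2 scale with an adjusted p of 0.0205 (edgeR). In an exact two-sided permutation test of 6 against 6 libraries, made without regard to genotype, Myh2 had p = 0.00216. That is the smallest p this design allows, and it restates that all ligated libraries lay above all naive ones. The same separation was seen for 6.73% of all tested genes.

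Actn3 had higher values in ligated WT tissue and was not called. In ligated tissue Actn3 had 7.49, 11.1 and 4.39 CPM in the 3 WT libraries and 10.7, 7.25 and 6.48 CPM in the 3 libraries labelled Cybb-/-. Among naive libraries, Actn3 had 0.335, 1.36 and 3.28 CPM in WT and 6.81, 7.63 and 1.16 CPM in those labelled Cybb-/-. The WT groups did not overlap, whereas those labelled Cybb-/- did. The log2 fold change was 2.22 ± 0.74 SE in WT (adjusted p = 0.124, edgeR) and 0.64 ± 0.70 SE in Cybb-/- (adjusted p = 0.588). With single libraries left out the log2 fold change ran from 1.73 to 3.17 in WT and from 0.17 to 1.03 in Cybb-/-. Over both genotypes it was 1.43 ± 0.51 SE with an adjusted p of 0.0598, just short of the threshold, and without WT naive replicate 3 it was 1.91 with an adjusted p of 0.0169 (edgeR). The difference between the genotypes in this response, -1.57 ± 1.00 SE, was not called and ran from -2.53 to -1.08 with single libraries left out.

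Myh4, the IIb chain, had the opposite sign and did not pass the test. In ligated tissue Myh4 had 181, 11.4 and 172 CPM in the 3 WT libraries and 27.2, 129.8 and 23.9 CPM in the 3 libraries labelled Cybb-/-. Among naive libraries, Myh4 had 139, 255 and 57.7 CPM in WT and 38.1, 264 and 424 CPM in those labelled Cybb-/-. The groups overlapped, and the log2 fold change over both genotypes was -1.16 ± 0.72 SE (adjusted p = 0.269, edgeR). The other 7 members had log2 fold changes over both genotypes from -0.49 for Ckm to 0.47 for Mylpf, and none of them was called. The creatine kinase gene overlapped between all 4 groups. In ligated tissue Ckm had 136, 22.2 and 133 CPM in the 3 WT libraries and 38.3, 198 and 35.1 CPM in the 3 libraries labelled Cybb-/-. Among naive libraries, Ckm had 64.6, 194 and 55.0 CPM in WT and 75.5, 119 and 301 CPM in those labelled Cybb-/-.

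In numbers, 1 of the 10 members was called over both genotypes, where 24.4% of all tested genes were called, and the share of members is below that background. Counting genes called higher alone, the background was 14.7%. It was also 1 of 10 in the libraries labelled Cybb-/-, with 13.0% of all genes called and 9.95% called higher, and 0 of 10 in WT, with 3.20%. In WT, 2 members, Myh2 and Actn3, had an unadjusted p under 0.05 in edgeR, as 19.9% of all genes did, and DESeq2 called 1. The median log2 fold change of the 10 was 0.17 over both genotypes, 0.53 in WT and -0.20 in Cybb-/-, beside -0.031, -0.026 and -0.034 for all tested genes. For 1 of the 10 members all 6 ligated libraries lay above all 6 naive ones, which was so for 6.73% of all genes. Within WT the ligated libraries lay above the naive ones for 2 members, against 13.3% of all genes, and within Cybb-/- for 1, against 18.5%.

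Because the share of counts on muscle genes varied several-fold within groups, the comparison was repeated with a level of muscle genes in each library as a covariate. This fit was chosen after the data had been seen. It was the mean log2(CPM + 0.5) of 20 genes of excitation-contraction coupling, the calcium release machinery of the fibre, and it holds no member. Those 20 are themselves muscle genes, 2 of which, Casq1 and Casq2, were called higher in ligated tissue without the covariate, so each value is relative to their mean level and not to a fixed amount of muscle. With it the standard error of Myh4 went from 0.72 to 0.21 and that of Myh1 from 0.45 to 0.11 on the log2 scale.

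At an equal level of the coupling genes the 10 members divided, with 2 higher and 5 lower in ligated tissue, where 24.5% of all genes were called, 15.1% higher and 9.42% lower. Myh2 rose by 2.42 ± 0.34 SE on the log2 scale (adjusted p = 9.11e-04, edgeR) and Actn3 by 1.66 ± 0.48 SE (adjusted p = 0.0276). Myh4 was 3.70-fold lower (log2 -1.89 ± 0.21 SE, adjusted p = 3.20e-04, edgeR) and Ckm 2.08-fold lower (log2 -1.06 ± 0.19 SE, adjusted p = 0.00318). The fast troponins were lower by smaller amounts. Tnni2 had a log2 difference of -0.63 ± 0.15 SE (adjusted p = 0.0111, edgeR), Tnnc2 -0.56 ± 0.095 SE (adjusted p = 0.00229) and Tnnt3 -0.42 ± 0.12 SE (adjusted p = 0.0249). Myh1 at 0.052 ± 0.11 SE, Acta1 at 0.025 ± 0.21 SE and Mylpf at 0.18 ± 0.10 SE were not called. Called lower were thus the IIb chain, the creatine kinase and the fast troponins.

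Within the genotypes, the same fit called Myh4 lower with ligature in both. The log2 difference was -2.01 ± 0.32 SE in WT (adjusted p = 0.0139, edgeR) and -1.76 ± 0.29 SE in Cybb-/- (adjusted p = 0.00474). In Cybb-/- it also called Myh2 higher and Ckm and Tnnc2 lower, 4 members in all, and in WT Myh4 alone, where 12.4% and 3.26% of all genes were called. With each library left out in turn, Myh2, Myh4, Ckm and Tnnc2 were called over both genotypes in all 12 fits, and the number of members called ran from 4 to 7. It was 4 without WT ligated replicate 2, the library with the lowest share of the 10 genes, where Actn3 had an adjusted p of 0.0745, Tnni2 of 0.0517 and Tnnt3 of 0.116 (edgeR). Actn3 also lost its call without Cybb-/- ligated replicate 1, WT naive replicate 2, Cybb-/- naive replicate 1 or Cybb-/- naive replicate 3, with log2 differences of 1.59, 1.78, 1.64 and 1.37. Tnnt3 lost it without replicate 1 of WT ligated, Cybb-/- ligated or WT naive or replicate 2 of Cybb-/- naive, with log2 differences of -0.40, -0.39, -0.39 and -0.40. Both genes kept their direction in the 12 fits, while Acta1, which was not called, ran from -0.092 to 0.12.

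**Figure D3:**
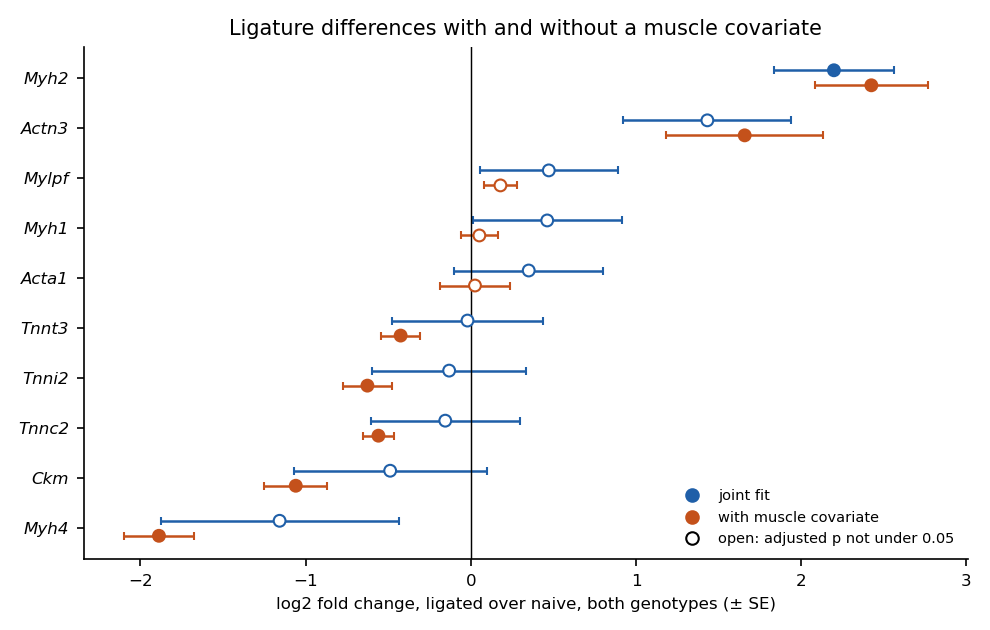
Log2 fold change of ligated over naive tissue over both genotypes (x axis, with SE bars) for each of the 10 genes (y axis), from the joint fit and from the fit with the level of excitation-contraction coupling genes as covariate. Filled points have an adjusted p under 0.05, which is 1 gene in the first fit and 7 in the second.

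The myosin genes Myh2, Myh1 and Myh4 lie in a row on the plus strand of chromosome 11 (GRCm38), at 67171027 to 67197517, 67200052 to 67224575 and 67238029 to 67260446. The 250 bases before the RefSeq transcript start of these neighbours, and of Acta1 as the actin gene that varied with Myh1, are shown because the data set their levels side by side. Coordinates are those of GRCm38.p6, with Acta1 on the minus strand. RefSeq promoters were matched for 7 of the 10 members, the 4 shown and Tnnc2, Ckm and Mylpf. Capitals mark a MEF2 site, a CArG box or the letters TATAAA.
Myh2 chr11:67170777-67171026: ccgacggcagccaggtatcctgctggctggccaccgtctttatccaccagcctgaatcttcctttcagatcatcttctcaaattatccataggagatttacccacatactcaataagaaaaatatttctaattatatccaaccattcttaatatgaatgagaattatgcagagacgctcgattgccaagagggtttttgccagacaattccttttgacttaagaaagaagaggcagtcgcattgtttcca
Myh1 chr11:67199852-67200101: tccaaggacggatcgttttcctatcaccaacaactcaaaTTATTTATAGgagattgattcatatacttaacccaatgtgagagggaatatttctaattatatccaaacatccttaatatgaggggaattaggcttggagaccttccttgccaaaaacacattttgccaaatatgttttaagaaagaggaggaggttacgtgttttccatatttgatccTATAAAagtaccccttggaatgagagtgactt
Myh4 chr11:67237562-67237811: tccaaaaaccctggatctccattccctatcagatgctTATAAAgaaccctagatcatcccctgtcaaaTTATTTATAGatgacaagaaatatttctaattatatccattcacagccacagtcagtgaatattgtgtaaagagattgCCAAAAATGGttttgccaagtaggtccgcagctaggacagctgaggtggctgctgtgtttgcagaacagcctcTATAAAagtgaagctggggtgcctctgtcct
Acta1 chr8:123894776-123895025: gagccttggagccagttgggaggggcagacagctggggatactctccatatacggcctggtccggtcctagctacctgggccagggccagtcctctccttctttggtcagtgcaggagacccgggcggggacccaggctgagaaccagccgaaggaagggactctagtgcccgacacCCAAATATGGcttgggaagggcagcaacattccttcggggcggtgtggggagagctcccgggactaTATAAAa
MEF2 and CArG sites, bound by factors that act on many muscle genes, were searched on both strands, and TATAAA on the coding strand. A MEF2 site was found in Myh1, beginning 211 bases before the start, and in Myh4, beginning 182 bases before it, and in 2.92% of 32851 RefSeq promoters. A CArG box was found in Myh4 and Acta1 and in 1.47% of promoters, and TATAAA in Myh1, Myh4 and Acta1 and in 7.59%. None of these letters was in the Myh2 window, nor in those of Tnnc2, Ckm and Mylpf, which varied with Myh1. The Myh2 window shares a run of 21 bases with that of Myh1, beginning 130 bases before the Myh2 start. It also shares a run of 21 bases with that of Myh4, beginning 131 bases before the Myh2 start. Of other motifs searched on both strands, the E-box CANNTG was in Myh4, Acta1, Ckm, Mylpf and Tnnc2 and in 66.2% of promoters, and the MCAT motif CATTCC in Myh1, Myh4 and Acta1 and in 12.6%. These are matches of letters in a window and say nothing of binding.

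Within the sarcomeric myosin heavy chain counts of a library, a composition that does not depend on its scaling, ligated tissue had the lower median of Myh4 and the higher median of Myh2. Myh4 made up 18.2%, 4.84% and 16.0% of these counts in the WT ligated libraries and 6.38%, 12.7% and 6.46% in the ligated libraries labelled Cybb-/-. In naive tissue it made up 32.4%, 32.2% and 22.3% in WT and 13.6%, 38.2% and 36.6% in the libraries labelled Cybb-/-. All naive libraries but Cybb-/- naive replicate 1, at 13.6%, were above all ligated ones. Myh2 made up 2.85% to 11.6% (median 6.00%) in the 6 ligated libraries and 0.317% to 6.86% (median 0.972%) in the 6 naive ones. Myh1, the majority chain, made up 67.4% to 83.7% (median 77.9%) and 61.4% to 82.7% (median 66.6%). The shares rest on 7095 to 41468 counts per library, are descriptions and were not tested.

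**Figure D4:**
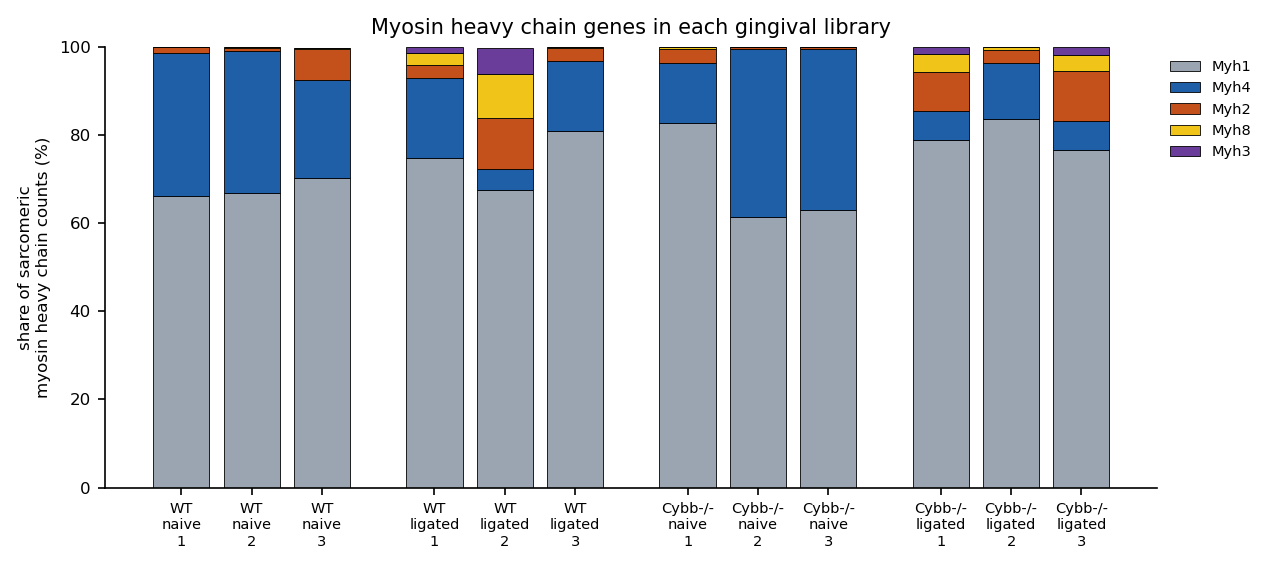
Percent of the sarcomeric myosin heavy chain counts (y axis) on Myh1, Myh4, Myh2, Myh8 and Myh3 as stacked bars for the 12 libraries (x axis). Myh1 is the largest part in every library, and Myh4 ranges from 4.84% to 18.2% in ligated and 13.6% to 38.2% in naive tissue.

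Myosin heavy chains are near copies, and counting could split reads between them. Of all 75-base words of its exons, Myh1 shares 15.8%, Myh2 13.9% and Myh4 9.68% with another gene, Acta1 0.394%, and the other 6 members 0. Of its words Myh2 shares 10.7% with the far more abundant Myh1, 3.19% with Myh4 and 5.89% with Myh8, which was also higher in ligated tissue. In the WT ligated libraries Myh8 was at 26.5, 23.8 and 2.65 CPM and Myh2 at 29.5, 27.3 and 30.7 CPM. How the counting divided shared reads was not tested. Tnnc2 overlaps 592 exon bases of Ube2c on the opposite strand, and Ckm, Myh1 and Myh2 overlap antisense genes that the count table does not list. The methods name counting by strand.

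Between the genotypes 0 of the 10 members were called, in ligated or in naive tissue, where 0.00665% of all genes, which is Cybb alone, were called in each. In ligated tissue the log2 fold changes of Cybb-/- over WT ran from -1.01 for Myh4 to 0.33 for Myh2, with 0 members at an unadjusted p under 0.05 in edgeR, against 3.34% of all genes, and 0 called by DESeq2. In naive tissue they ran from -0.83 for Myh2 to 1.66 for Actn3. Actn3, with a log2 fold change of 1.66 ± 0.74 SE, was the 1 member at an unadjusted p under 0.05 in edgeR, against 2.03% of all genes, and DESeq2 called 0. The median of the members was 0.61 in naive tissue and -0.16 in ligated tissue, beside 0.0023 and 0.013 for all genes. With the covariate, the difference of 7 members in naive tissue changed sign. For the difference between the genotypes in the response to ligature, edgeR called 0 members, had 0 at an unadjusted p under 0.05, against 2.27% of all genes, and called 0.00% of all genes, and DESeq2 called 0 members. For Myh2 this difference was 1.16 ± 0.70 SE and for Myh4 -1.70 ± 1.43 SE on the log2 scale. With single libraries left out the ranges were 0.36 to 1.82 for Myh2 and -2.94 to -1.02 for Myh4. The standard errors leave differences of several-fold undetectable at 3 mice a group.

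The other genes of skeletal muscle were described through 10 lists, some of which share genes, and which hold no member. Genes of the lists that are named here because they passed the test were chosen after their values were seen. In the comparison over both genotypes, 24.4% of all tested genes were called and 14.7% called higher. Of 14 tested thick filament and M-band genes 4 were higher and 1 lower, with a median log2 fold change of -0.042. Of 8 thin filament genes 3 were higher (median 0.58), of 20 Z-disc and costamere genes 3 (median 0.28) and of 20 excitation-contraction coupling genes 2 (median 0.094). Among the most abundant of these, the giant spring protein gene Ttn had a log2 fold change of -0.0033 ± 0.44 SE, the nebulin gene Neb 0.30 ± 0.41 SE and the calcium pump gene Atp2a1 -0.067 ± 0.52 SE, none of them called. Fbp2 was the 1 gene lower of 19 tested in energy metabolism (median -0.20), a list in which the myoglobin gene Mb was at -0.0056 ± 0.48 SE. With the covariate 11 of these 19 were called lower and 0 higher, with a median of -0.60, where 9.42% of all tested genes were called lower in that fit. For the other lists of this paragraph the counts in that fit are not given here. Casq1, Myl1 and the lower thick filament gene, Mylk4, were not called with any 1 of several libraries left out. Myl1, among the 4 higher thick filament genes, also lost its call in the robust fit (adjusted p = 0.053, edgeR). With the replicate block its adjusted p was 0.0654 (edgeR). The list of protein turnover and adaptors had 2 of 18 higher, the stretch-responsive ankyrin repeat genes Ankrd1 and Ankrd2 (median 0.33). Over the 12 libraries the mean log2(CPM + 0.5) of the 10 members had a Pearson correlation of 0.282 with Fbp2 and -0.032 with Ankrd1. The correlation was 0.941 with Mb and 0.944 with Atp2a1. From which cells the reads of these genes came was not tested.

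Counts for genes of immature and slow muscle stand beside the same background, 14.7% of all genes called higher. Of the developmental and specialised myosins, 3 of 4 tested rose with ligature over both genotypes, Myh3, Myh8 and the embryonic light chain gene Myl4 (median log2 fold change 3.65). In ligated tissue Myh8 had 26.5, 23.8 and 2.65 CPM in the 3 WT libraries and 16.9, 7.17 and 13.3 CPM in the 3 libraries labelled Cybb-/-. Among naive libraries, Myh8 had 0.396, 1.04 and 0.656 CPM in WT and 1.01, 0.333 and 0.915 CPM in those labelled Cybb-/-. No naive library reached the lowest ligated one, and the log2 fold change was 4.35 ± 0.55 SE (adjusted p = 4.35e-04, edgeR). Myh3, the embryonic chain, had 542, 535 and 13 counts in the WT ligated libraries, 261, 21 and 276 in the ligated libraries labelled Cybb-/-, and 0 to 5 in the naive ones. Myl4 had a log2 fold change of 2.95 ± 0.48 SE. Myh3 and Myh8 together made up 0.277% to 16.0% of myosin heavy chain counts in ligated and 0.0602% to 0.401% in naive tissue.

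The slow fibre list had 7 of 10 tested genes higher over both genotypes (median 1.63). In ligated tissue Tnnt1 had 10.2, 8.90 and 10.9 CPM in the 3 WT libraries and 11.8, 8.35 and 9.10 CPM in the 3 libraries labelled Cybb-/-. Among naive libraries, Tnnt1 had 1.07, 1.39 and 1.06 CPM in WT and 1.47, 0.999 and 0.702 CPM in those labelled Cybb-/-. This gene, slow troponin T, was above every naive library in all 6 ligated ones and had a log2 fold change of 3.14 ± 0.20 SE (adjusted p = 2.87e-05, edgeR). Tnnc1, the slow troponin C gene, had a log2 fold change of 3.48 ± 0.60 SE, and Casq2, the slow calsequestrin gene, 1.71 ± 0.22 SE. Tnni1, Myl2, Myoz2 and Csrp3 were the others called. All 7 belong also to the thick filament, thin filament, Z-disc or coupling lists and are counted there too. The slow myosin heavy chain gene Myh7 was at 0.0228 to 0.547 CPM and was not called (log2 -0.25 ± 0.68 SE). Myl3 was not tested, with 0 to 4 counts.

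Regulators of muscle formation and genes of the synapse were also among those called. Of 14 myogenic and satellite cell genes 5 were higher (median 0.99), among them Myog, the factor of terminal muscle differentiation, the fusion gene Mymk, and Pax7, the satellite cell marker, which was not called with any 1 of 8 libraries left out. Myog had 4.33, 4.55 and 0.727 CPM in the WT ligated libraries and 4.36, 0.642 and 2.15 CPM in those labelled Cybb-/-, and at most 0.275 CPM in naive ones. Its log2 fold change was 3.90 ± 0.59 SE (adjusted p = 0.00107, edgeR). Mymk had 141, 119 and 4 counts in WT ligated and 89, 22 and 52 in Cybb-/- ligated libraries, and 0 to 3 in naive ones. Of 11 neuromuscular junction genes 5 were higher (median 1.13), among them Chrnd, which is counted in the myogenic list too. Chrna1, the alpha subunit of the muscle acetylcholine receptor, had a log2 fold change of 2.55 ± 0.54 SE (adjusted p = 0.00631, edgeR). With single libraries left out it ran from 2.29 to 3.57, the highest without Cybb-/- naive replicate 3. Chrng, the fetal gamma subunit of that receptor, had 39, 58 and 0 counts in WT ligated, 36, 3 and 19 in Cybb-/- ligated and 0 to 1 in naive libraries.

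Myh3, Myog and Mymk did not follow the members from library to library. WT ligated replicate 3 and Cybb-/- ligated replicate 2 had the highest shares of the 10 members among ligated libraries, 0.298% and 0.300%, and the lowest counts of Myh3, Myog and Mymk among them. The highest counts of Myh3 were in WT ligated replicate 1, with 542 at a share of 0.247%, and in WT ligated replicate 2, with 535 at the lowest share, 0.0637%. Myh2 was at 27.3 CPM in WT ligated replicate 2 and at 30.7 CPM in WT ligated replicate 3. Among ligated libraries the IIa gene thus stayed in a narrow band, 27.3 to 42.4 CPM, while Myh1 ranged from 159 to 869.8 CPM. Within each genotype edgeR called 3 developmental, 4 slow fibre and 2 myogenic genes, and 3 junction genes in WT and 1 in Cybb-/-, where 3.20% of all genes were called in WT and 13.0% in Cybb-/-. Some of these calls were lost with single libraries left out. In WT, 13 genes of the muscle lists lost their call without WT naive replicate 2, a fit in which the number of all genes called went from 481 to 27. Among them were Myh8, with a log2 fold change of 5.07 in that fit (adjusted p = 0.0744, edgeR), and Myog, with 4.13 (adjusted p = 0.128). In Cybb-/-, 8 lost it without Cybb-/- ligated replicate 1 and 8 without Cybb-/- naive replicate 2, Myh3 and Myog in both cases. No gene was called for the difference between the responses of the genotypes.

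**Figure D5:**
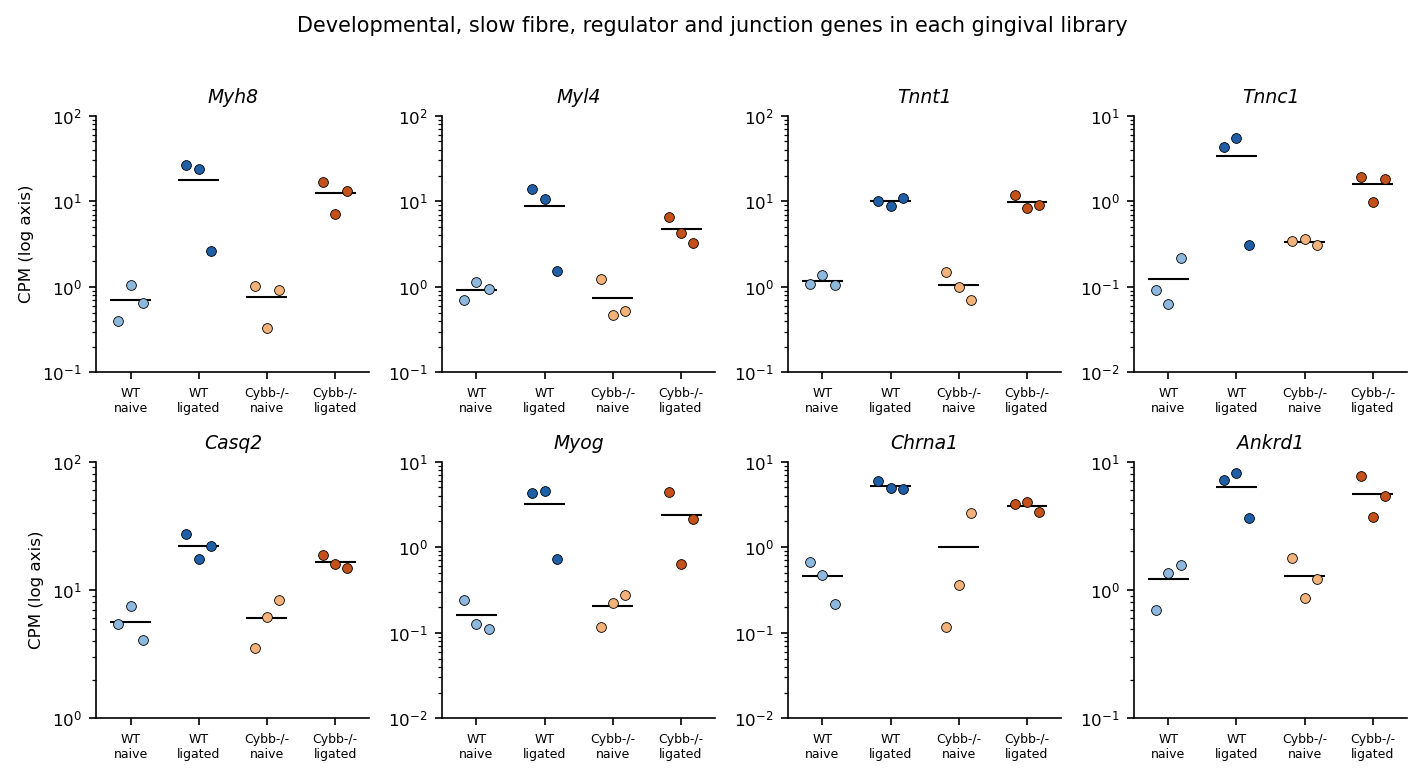
CPM (y axis, log scale) of 8 other muscle genes, the developmental Myh8 and Myl4, the slow Tnnt1, Tnnc1 and Casq2, and Myog, Chrna1 and Ankrd1, in the 4 groups (x axis), with a point per library and a line at the group mean. The 6 ligated libraries of Tnnt1, 8.35 to 11.8 CPM, lie above the 6 naive ones, 0.702 to 1.47 CPM.

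The rest of the dissected tissue also differed with ligature, and its part in the levels of Myh2, Actn3 and Myh4 was not tested. Called over both genotypes were 11 of 11 neutrophil genes, 7 of 8 macrophage genes, 7 of 7 endothelial genes, 7 of 8 fibroblast genes, 4 of 8 bone genes and 3 of 7 tendon genes, all higher in ligated tissue, where 14.7% of all tested genes were called higher. The summed level of the fibroblast list was 6059.9 to 9161 CPM in WT ligated and 4459 to 12032 CPM in Cybb-/- ligated libraries, and 2101 to 3349 and 1640.5 to 2147 CPM in naive WT and Cybb-/- libraries. That of the tendon list, of the tissue that joins muscle to bone, was 249 to 309 and 174 to 553 CPM in the ligated and 164 to 230.1 and 95.7 to 196 CPM in the naive groups. That of the neutrophil list was 1623 to 4046 and 2998 to 11817 CPM in the ligated and 498 to 949 and 921 to 1044 CPM in the naive groups.

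Genes of other contractile cells, of nerve and of the remaining tissue were tested in the same comparison, where 24.4% of all genes were called and 14.7% called higher. Of the cardiac genes, Nppa was at 0 in 12 libraries and Myh6 at 0 to 2 counts, where a count of 0 allows up to 3, and 0 of 3 tested were called by edgeR or DESeq2, with 1 at an unadjusted p under 0.05 in edgeR. Of 9 smooth muscle and mural genes edgeR called 0, had 1 at an unadjusted p under 0.05, and DESeq2 called 1. Their summed level was 225 to 261 and 278 to 293 CPM in the ligated and 84.8 to 467 and 133 to 198 CPM in the naive groups. Of 8 nerve and Schwann genes edgeR and DESeq2 called 0, with 0 at an unadjusted p under 0.05 in edgeR. Of the remaining lists, 1 of 7 adipocyte genes was lower, 2 of 11 gland genes were higher and 1 lower, and 1 of 13 oral epithelial genes was higher and 2 lower. The gland list summed to 65.1 to 29631 CPM across the WT naive libraries, the top value being that of replicate 3. Without that library Actn3 was called over both genotypes, and whether gland content had a part in this was not tested.

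Among 14908 tested genes outside the muscle lists, 32 had a correlation above 0.9 with the mean log2(CPM + 0.5) of the 10 members over the 12 libraries, where the median over all tested genes was -0.0415. Of 128 other muscle list genes 31 did so, led by the calcium release adaptor gene Stac3. Among the nearest outside the lists were Fitm1 (r = 0.970), Coq8a (r = 0.956), Hhatl (r = 0.954), Rtn2 (r = 0.951) and Pde4dip (r = 0.944). They were followed by Crat (r = 0.939), Coro6 (r = 0.939), Fxyd6 (r = 0.936) and Ppp1r12b (r = 0.931), and by Myo18b (r = 0.930), Nipsnap2 (r = 0.929), Plin5 (r = 0.924) and Crhr2 (r = 0.924). Fitm1 is a lipid droplet gene, and Crat encodes carnitine acetyltransferase. The most opposed were Taf9 (r = -0.898), Glis1 (r = -0.771), Cfap300 (r = -0.752), Lyst (r = -0.729) and Fdx1l (r = -0.729). These values describe likeness across libraries that share their scaling, and carry no test.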

How the data were processed

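RNA of gingival tissue was sequenced in 12 libraries of 4 groups with 3 each, grouped by the labels of the samples. The authors deposited raw counts of reads per gene, which they had not normalized. Per the methods, stranded mRNA libraries were aligned with STAR to GRCm38 and counted by strand with featureCounts, while the submitters' processing notes name HTSeq 0.10.0 and FastQC 0.10.1, and which tool counted is unclear. The methods name paired-end sequencing and an alignment of single-end reads. Totals ran from 27958819 to 42613423 counts. The sources give 3 mice a group, matched for age and sex, but not whether each library was 1 mouse, so p-values measure the spread between these samples. Of 21965 genes 21939 were matched to GENCODE M21 on GRCm38, which gave symbols, positions and exon lengths.

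Counts were tested in R 4.3.3 with edgeR 4.0.16 (quasi-likelihood, TMM, filterByExpr leaving 15046 genes, 1 mean per group over 12 libraries, Benjamini-Hochberg adjustment over all tested genes, called at an adjusted p under 0.05). Contrasts were ligature in each genotype, genotype in ligated and in naive tissue, and their interaction. The mean of both ligature contrasts and the covariate of excitation-contraction coupling genes, with its fits leaving out each library, were added after seeing the data. DESeq2 1.42.0 (named in the methods), other scalings and filters, a robust fit, fits of the groups compared, a replicate block and leaving out each library were alternatives. The edgeR and DESeq2 tests of ligature in WT were tried on simulated data. The other contrasts, the covariate fit and the permutation tests were not. Tables were made in Python 3.11.15, with exact permutation tests in scipy 1.17.1 and a pseudocount of 0.5 CPM. Shared words are stretches of exon sequence found in another gene. The members, the 23 gene lists and the alternatives were chosen with earlier results of these data known. The rule for naming covered the 10 members, Cybb, the 3 most abundant genes and those at 0 of each list, and the 15 most and 5 least like genes by correlation. The text departs from it by printing only some of the abundant list genes, by naming list genes that passed the test, and by leaving out some genes that are not reported here.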

Additional observations from a re-analysis of the deposited data

How the results depend on the processing

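Myh2 kept its direction and its call over both genotypes and in Cybb-/- tissue under every alternative run (DESeq2, its size factors, library size only, scaling without muscle genes, no or a stricter filter on low counts, a robust fit, a replicate block and each library left out). In WT, DESeq2 called 1 member, Myh2, and leaving out single libraries gave 0 to 1. Over both genotypes library size only called 2, Myh2 and Actn3, and leaving out libraries gave 1 to 2. With the muscle covariate 1 was called in WT, 4 in Cybb-/- and 7 over both genotypes, the last being 4 to 7 with libraries left out. The mean share of counts was 0.617%, 0.530%, 0.414% and 0.591% in WT ligated, Cybb-/- ligated, WT naive and Cybb-/- naive tissue with 7 muscle lists added to the 10 genes.

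The log2 fold changes that changed sign were not called under the setting that changed them. With library size only they were 0.020 for Ckm in WT and 0.067 for Tnnt3 over both genotypes. The replicate block gave 0.24 for Ckm in WT, -0.036 for Acta1 in Cybb-/-, -0.071 for Acta1 between ligated genotypes and 0.034 for Tnnt3 over both. The covariate gave -0.035 for Myh1, -0.50 for Tnnt3, -0.68 for Tnni2 and -0.56 for Tnnc2 in WT, and 0.026 for Ckm, 0.038 for Myh1, 0.074 for Tnnt3 and 0.054 for Tnni2 between ligated genotypes. It gave -0.059 for Ckm, -0.13 for Myh1, -0.72 for Myh4, -0.063 for Mylpf, -0.070 for Tnnt3, -0.061 for Tnni2 and -0.036 for Tnnc2 between naive genotypes. For the difference between responses it gave 0.010 for Acta1, 0.085 for Ckm, 0.17 for Myh1, 0.25 for Myh4, 0.031 for Mylpf, 0.14 for Tnnt3 and 0.11 for Tnni2. With single libraries left out the ranges were -0.41 to 0.70 for Ckm, -0.70 to 0.31 for Myh4, -0.11 to 0.93 for Tnnt3, -0.22 to 0.74 for Tnni2 and -0.23 to 0.84 for Tnnc2 in WT, and -0.84 to 0.77 for Acta1, -0.57 to 0.59 for Myh1 and -0.62 to 0.60 for Mylpf in Cybb-/-. They were -0.75 to 0.52 for Acta1, -1.40 to 0.28 for Ckm, -0.93 to 0.12 for Myh1, -0.88 to 0.19 for Mylpf, -0.91 to 0.24 for Tnnt3, -1.06 to 0.28 for Tnni2, -1.02 to 0.22 for Tnnc2 and -0.19 to 0.45 for Actn3 between ligated genotypes, and -0.11 to 1.46 for Ckm and -0.017 to 0.99 for Myh1 between naive ones. They were -1.47 to 0.14 for Acta1 and -2.06 to 0.0048 for Ckm for the difference between responses, and -0.11 to 0.70 for Acta1, -0.32 to 0.23 for Tnnt3, -0.55 to 0.10 for Tnni2 and -0.50 to 0.11 for Tnnc2 over both genotypes, with -0.092 to 0.12 for Acta1 under the covariate. The causes of these changes were not tested.

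Of all tested genes, 481 were called with ligature in WT, against 1372 with DESeq2, 271 with the replicate block and 27 (without WT naive replicate 2) to 900 (without Cybb-/- ligated replicate 2) with single libraries left out. In Cybb-/- 1954 were called, and 837 to 2949 with libraries left out. Between genotypes 1 was called in ligated tissue, against 18 with DESeq2, 0 with only the groups compared and 0 to 2 with libraries left out, and 1 in naive tissue, against 2 with DESeq2. The interaction had 0, and 0 to 1 with libraries left out. Replicate numbers did not pair the samples: deviations from group means of same-numbered libraries had correlations from -0.306 to 0.321 over 18 pairs, 3 of them above 0.1, and the block changed no call of a member. Of the other muscle genes, Casq1, Chrnd, Myl1, Mylk4 and Pax7 were among those that lost their call over both genotypes under an alternative. Within the genotypes, single libraries left out removed the call of 1 to 13 such genes in WT and 1 to 8 in Cybb-/- in the fits that lost any. Fitting only the groups compared removed 8 in WT, and the replicate block 5 in WT (Chrna1, Chrnb1, Myh3, Myl6b and Tnnc1) and 3 in Cybb-/- (Ankrd2, Chrnb1 and Mybph). At these depths Myh3, Mymk and Chrng had 0 to 5 counts in naive libraries, so no fold is given for them.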
